A study of Mus musculus with 234 samples.

Results

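The proteasome subunits are the genes whose mouse symbol is Psma, Psmb, Psmc, Psmd, Psme or Psmf followed by a number. Pseudogenes were left out, and a member had to carry a count in at least 10% of the single cardiomyocytes (CMs). Of 45 such symbols 41 qualified, out of 55538 features in the table, of which 23664 carried a count. The CMs came from the ventricles of 5 mice, were picked by hand after Langendorff dissociation and were profiled by SMART-seq2, a full-length protocol without molecular identifiers. The labels gave 33 CMs of 2 control mice under the strain C57BL/6, 24 from mouse M26 and 9 from mouse M73. They gave 80 bright CMs (21 from M25, 59 from M116) and 68 dim CMs (18 from M25, 50 from M116) of 2 mice of the strain PGKcre:BAG3P209L_homo. A single mouse, M72, of the strain PGKcre:BAG3P209L_het gave 27 bright and 26 dim CMs. All transgenic mice carried the human co-chaperone BAG3 with the P209L mutation, fused to eGFP, in the Rosa26 locus behind a STOP cassette. The line came from 1 embryonic stem cell clone, and the cassette was removed by Cre under the PGK promoter, which is active in all tissues. Controls were siblings that were wild type or carried PGK-Cre or the unrecombined transgene alone, and the methods describe a mixed genetic background. Controls and homozygotes were 2 weeks old, while no age is given for M72 in the sources used here. Bright and dim refer to the eGFP fluorescence of the isolated CM. M25 and M26 were in 1 library set, M116, M73 and M72 in the other, and M72 and M73 shared a plate.

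The proteasome is the protease that degrades ubiquitin-tagged proteins. Its 20S core is a barrel of outer rings of alpha subunits, which gate the entrance, and inner rings of beta subunits, of which Psmb5, Psmb6 and Psmb7 hold the active sites. The 19S cap binds tagged proteins, removes ubiquitin and unfolds the substrate with a ring of ATPases (Psmc1 to Psmc6), while non-ATPase subunits form its scaffold, its ubiquitin receptors and its lid. Psmd5, Psmd9 and Psmd10 are not part of the finished particle and act as chaperones in building the 19S base. Interferon replaces the catalytic subunits with Psmb8, Psmb9 and Psmb10 to form the immunoproteasome. Psme1 with Psme2, Psme3 and Psme4 are alternative activators of the core, and Psmf1 is an inhibitor. In CMs the proteasome works beside the chaperone-assisted autophagy route that BAG3 serves.

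The members comprised 7 alpha subunits, 7 constitutive beta subunits, Psmb10, 6 ATPases, 11 non-ATPase subunits, 3 base chaperones and 6 activators or inhibitors. The 4 symbols outside were Psmb8 with a count in 12 CMs (5.13%), Psmb9 in 9 (3.85%), Psma8, the testis alpha subunit, in 7 (2.99%), and Psmb11, the thymus subunit, in 0. The members counted in the fewest CMs were Psmd10 in 93 (39.7%) and Psmd5 in 99 (42.3%), well above the limit of 10%.

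Proteasome genes are known to share transcription factors, so the 250 bases upstream of the start site were read from the RefSeq promoter table (GRCm38.p6). The table matched 35 of the 41 members with 38 windows. The 4 windows that follow are shown because they belong to Psmb6, which had the highest median level per length, and to Psmd5, Psmd10 and Psmd11, the 3 members with the largest fold changes in bright CMs against control. Capitals mark, on either strand, the Ets core CCGGAAG, the CCAAT box and TGACNNNGC, the core of the antioxidant response element through which Nfe2l1 is known to act on proteasome genes.
Psmb6, chr11:70525107-70525356, plus strand: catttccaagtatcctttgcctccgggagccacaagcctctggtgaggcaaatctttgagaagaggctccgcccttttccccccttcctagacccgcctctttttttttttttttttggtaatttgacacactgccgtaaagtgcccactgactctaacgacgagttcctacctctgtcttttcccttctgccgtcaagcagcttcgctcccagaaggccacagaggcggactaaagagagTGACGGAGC
Psmd5, chr2:34870963-34871212, minus strand: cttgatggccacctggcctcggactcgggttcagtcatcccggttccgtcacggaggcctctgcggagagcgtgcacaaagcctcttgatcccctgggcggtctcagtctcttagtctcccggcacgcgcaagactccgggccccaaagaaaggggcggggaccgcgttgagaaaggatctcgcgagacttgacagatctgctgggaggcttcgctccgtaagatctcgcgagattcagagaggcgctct
Psmd10, chrX:140956712-140956961, minus strand: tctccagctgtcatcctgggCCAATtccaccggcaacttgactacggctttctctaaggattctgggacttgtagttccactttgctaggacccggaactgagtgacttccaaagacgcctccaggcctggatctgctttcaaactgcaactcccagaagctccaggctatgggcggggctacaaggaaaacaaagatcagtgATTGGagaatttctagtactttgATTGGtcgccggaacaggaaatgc
Psmd11, chr11:80428365-80428614, plus strand: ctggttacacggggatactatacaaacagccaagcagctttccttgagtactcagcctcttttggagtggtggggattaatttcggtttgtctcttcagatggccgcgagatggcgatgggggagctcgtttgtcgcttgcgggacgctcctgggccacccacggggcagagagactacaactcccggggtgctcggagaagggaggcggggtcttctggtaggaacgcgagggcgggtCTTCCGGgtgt

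The Psmd5 window held 0 matches to the 3 motifs. The Psmb6 window ended in a match to TGACNNNGC, the Psmd10 window held 3 CCAAT boxes, and the Psmd11 window held an Ets core 11 bases upstream of the start. Over all members, 12 of 38 windows (31.6%) held the Ets core, beside 6.91% of all 32851 promoter windows of the same length. TGACNNNGC was in 5 member windows (13.2%), beside 10.2% of all windows. The CCAAT box was in 12 member windows (31.6%), beside 33.8% of all windows. The Ets core is not contained in either of the other motifs. A match is a description of letters and not a binding site.

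The 12 Ets matches belonged to 11 genes, of which 8 encode ATPase or non-ATPase subunits of the 19S cap, beside 14 such genes among the 35 with a window, and 9 matches lay within 100 bases of the start. The following windows show the match in capitals with up to 10 bases on each side, for the 7 of these matches on the bases nearest to the start.
Psmd11, chr11:80428594-80428614, plus strand: gagggcgggtCTTCCGGgtgt
Psmd12, chr11:107479501-107479527, plus strand: gagcgggcgaCTTCCGGtgcgagtgac
Psmc2, chr5:21786713-21786739, plus strand: cgcggagctaCTTCCGGtggggaagag
Psmd2, chr16:20651616-20651642, plus strand: ccgcagggcgCTTCCGGtctggaggac
Psmc1, chr12:100110164-100110190, plus strand: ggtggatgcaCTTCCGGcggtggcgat
Psmd6, chr14:14120974-14121000, minus strand: agagacgcgaCCGGAAGtcagactggc
Psme4, chr11:30771712-30771738, plus strand: tggccccgccCCGGAAGtgacttgagg

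Counts were summed over the CMs of a mouse and brightness class, which gave 8 sums of 4096609 to 40508124 counts, and the mouse was the replicate. A CM held between 487 and 1392253 counts (median 711527), and 15 CMs had fewer than 1000 genes. Each of the 6 CM markers had a count in every well. Human BAG3 was at 294 (M25) and 233 (M116) CPM, counts per 1e+06 counts of a sum, in the homozygous bright sums, 10.7 and 99.6 in the dim sums, and at most 0.488 in controls, while in M72 the dim sum (251) exceeded the bright sum (105). Control M73 stood apart from M26, with 9 CMs, the lowest depth and a median of 30 members detected per CM, beside 34 to 39 in the other sums. Levels below are CPM scaled across the 8 sums by TMM, edgeR's correction for differences in RNA composition, unless stated otherwise.

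Levels differed widely between members. Per kilobase of exon (GENCODE M21), without TMM, the median over the 8 sums was highest for Psmb6 at 179 CPM per kb, followed by Psmb2 at 173 and by the alpha subunit Psma6 at 157. The ranges of these 3 over the sums overlapped (131 to 221, 122 to 238 and 93.8 to 205), so their order was not resolved. Lowest were the chaperone Psmd5 at 2.61 and Psmd9 at 3.28 CPM per kb, the activator copy Psme2b at 3.28 and the inhibitor Psmf1 at 3.50. Psmd5 and Psmd9 overlapped too, with Psmd5 between 0.0338 and 5.52. The 6 ATPases had medians per kb between 20.2 (Psmc2) and 107.5 (Psmc5). The length was the union of all annotated exons of a gene, 5031 bases for Psmc2 and 1394 for Psmc5, and not the expressed transcript. These rankings per kb therefore depend on the annotation as well as on the counts.

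The steadiest member over the 8 sums was Psmb1, a non-catalytic beta subunit, with a coefficient of variation of 8.66%. The lid subunit Psmd8 followed at 11.2%, and the catalytic Psmb6 was at 12.7%. The least steady were the chaperones, at 74.1% for Psmd5, 54.5% for Psmd10 and 47.2% for Psmd9. Over the 6 transgenic sums alone Psmd5 was at 51.4%, Psmf1 at 49.5%, Psmd9 at 45.3% and Psmd10 at 24.1%, so the place of Psmd10 rested on the controls. M73 held the lowest value of 21 of the 41 members and the highest of 7. M25 bright held the highest of 15 members and the lowest of 0.

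**Figure D1:**
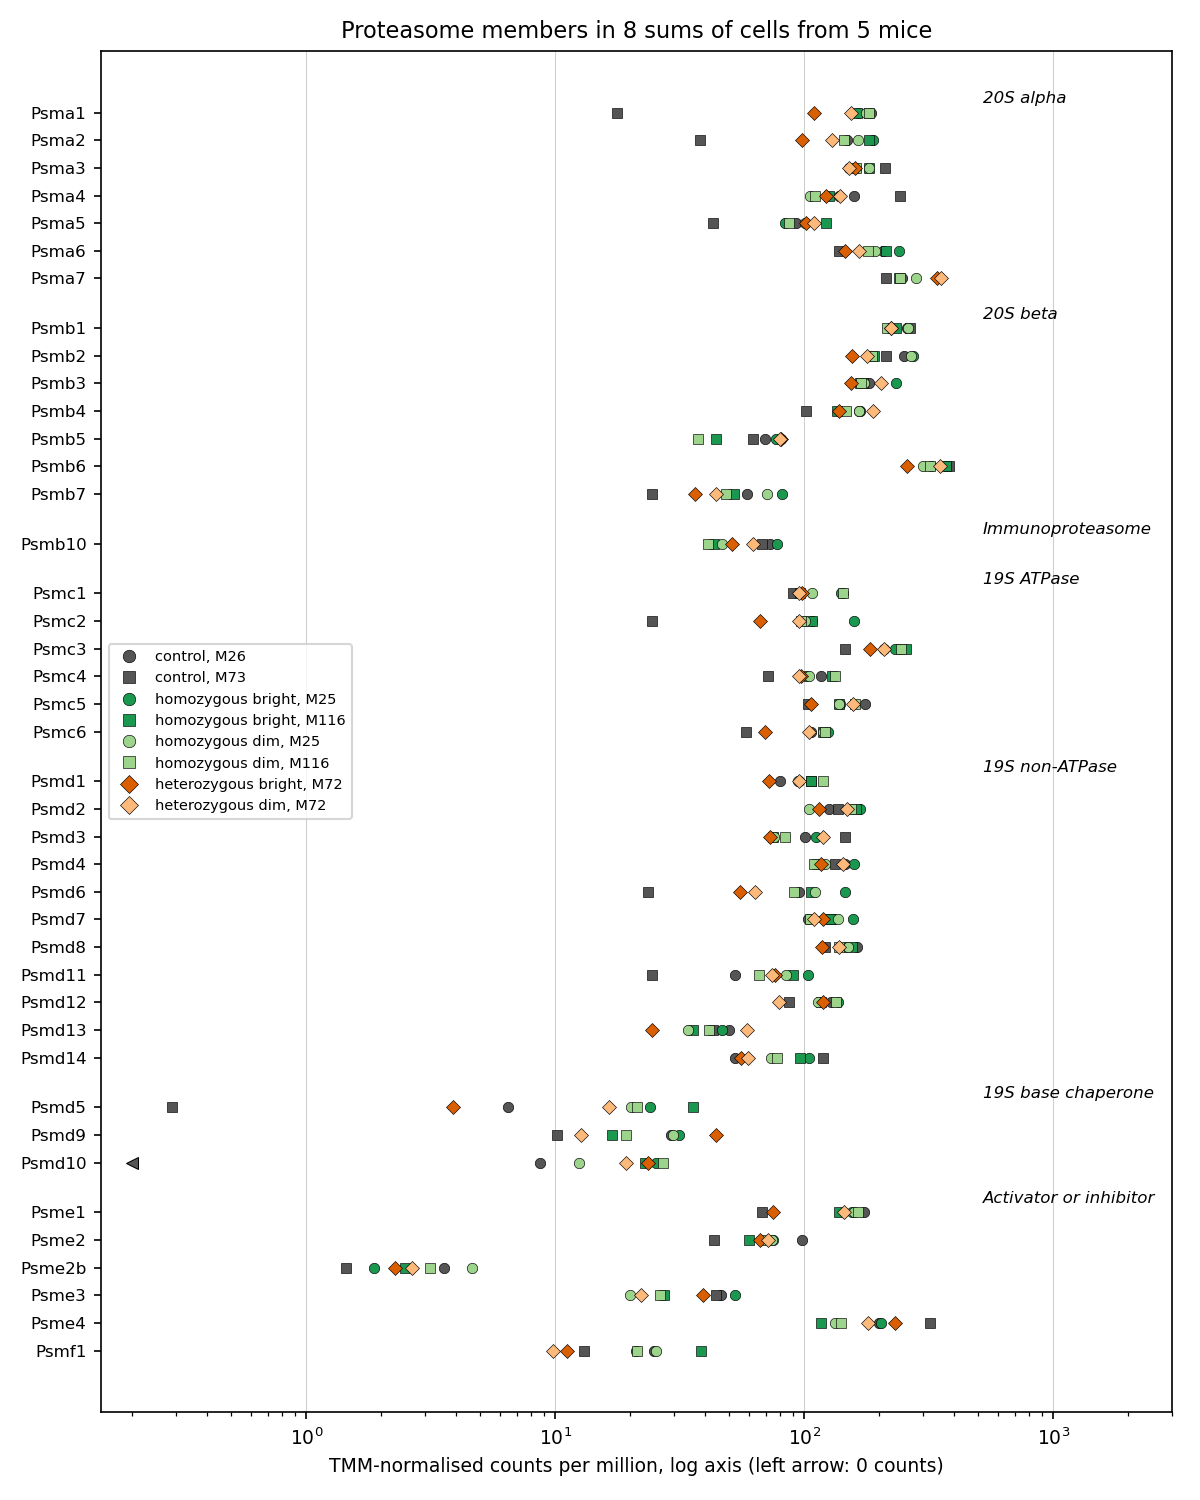
TMM-normalised CPM (x axis, log scale) of the 41 members in each of the 8 sums, by class, with colour for genotype and brightness and symbol for the mouse; the arrow marks 0 counts. The M73 control square lies far to the left for Psma1 (17.7), Psma2 (38.0), Psmd6 (23.5), Psmc2 (24.4), Psmd5 (0.290) and Psmd10 (0).

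The comparison of homozygous bright CMs with control asked whether CMs with visible mutant BAG3 carried altered proteasome transcripts. With mice as replicates, edgeR (quasi-likelihood, Benjamini-Hochberg) gave 0 of 41 members below an adjusted p of 0.05. Of all 12203 genes tested 2 were below it (0.0164%), and both were features of the transgene. At an unadjusted p under 0.05 there was 1 member, beside 6.55% of all genes. DESeq2 called 0 members (0.754% of all genes) and had 2 at an unadjusted p under 0.05 (8.31% of all genes). The median log2 fold change of the members was 0.20, beside 0.11 over all genes, and 27 of 41 were above 0, beside 54.1% of all genes. Scaling by library size alone moved the median of all genes to 0.41 and that of the members to 0.52, with 38 of 41 above 0 (67.3% of all genes), so the members stood 0.09 above all genes with TMM and 0.10 without. Without control M73 the median of the members was -0.014 with 20 of 41 above 0 (57.5% of all genes).

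The lid subunit Psmd11 was the member at an unadjusted p under 0.05. It measured 104 CPM in M25 and 89.9 in M116 bright CMs against 52.9 in M26 and 24.4 in M73. Both bright sums lay above both controls (log2 fold change 1.31, SE 0.49, adjusted p = 0.702, edgeR). Within library sets the fold was 1.96 for M25 over M26 (95% exact interval 1.81 to 2.12) and 3.69 for M116 over M73 (2.97 to 4.64). These intervals treat reads as independent and cover no variation between mice. Reads without molecular identifiers are not independent molecules, so the intervals can be too narrow even for counting error.

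The base chaperones Psmd5 and Psmd10 had the largest fold changes. Psmd5 was at 23.9 CPM in M25 and 35.9 in M116 bright CMs against 6.47 in M26 and 0.290 in M73, where it had 1 count in 1 of 9 CMs. The groups did not overlap (log2 fold change 3.07, SE 1.28, adjusted p = 0.770, edgeR). M25 over M26 gave a fold of 3.70 (3.01 to 4.57), and M116 over M73 one of 124, with an interval of 22.2 to 4889 because of that single count. Psmd10 was at 25.3 and 22.9 CPM in bright CMs, 8.65 in M26 and 0 in M73 (log2 fold change 2.42, SE 1.59, adjusted p = 0.903, edgeR). It was 2.93 times higher in M25 than in M26 (2.44 to 3.53), and at least 26.4-fold higher in M116 than in M73, against a floor of 3 counts in that sum. Without M73 the log2 fold change was 2.22 for Psmd5 and 1.49 for Psmd10. Without M26 it was 6.62 for Psmd5, with M73 and its 1 count as the lone control. Psmd5 then passed the filter on low counts only through the bright sums, so that value carries no weight. In M26 Psmd10 was counted in 7 of 24 CMs and Psmd5 in 10 of 24, and 49.5% of the Psmd10 counts of M25 bright CMs came from 1 CM. Psmd9 was at 31.5 and 16.9 CPM in bright CMs against 29.1 and 10.1 in controls, and the groups overlapped (log2 fold change 0.29, SE 0.78).

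Other 19S subunits completed the 5 highest. The lid subunit Psmd6 was at 145 and 106 CPM against 94.9 in M26 and 23.5 in M73 (log2 fold change 1.07, SE 0.65, adjusted p = 0.886, edgeR). The ATPase Psmc2 was at 158 and 107 CPM against 108 and 24.4 (0.99, SE 0.68, adjusted p = 0.907), and M116 did not exceed M26. Without M73 the log2 fold change was 0.41 for Psmd6 and 0.30 for Psmc2, and without M26 it was 2.38 and 2.40. The 5 lowest were led by the activator Psme4, also called PA200, at 203 and 117 CPM against 199 in M26 and 319 in M73 (log2 fold change -0.73, SE 0.42, adjusted p = 0.876, edgeR). The alpha subunit Psma4 was at 137 and 126 CPM, below both controls at 158 and 243 (-0.63, SE 0.36, adjusted p = 0.876). Without M73 the log2 fold change was -0.31 for Psme4 and -0.25 for Psma4. The lid subunit Psmd3 followed at -0.43 (SE 0.40), Psme2b at -0.24 (SE 1.39) and Psmb10 at -0.23 (SE 0.45), each with overlapping groups.

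Among the catalytic subunits, Psmb6 was at 370 and 373 CPM in bright CMs against 323 and 382 in controls (log2 fold change 0.05, SE 0.28). Psmb5 was at 76.7 and 44.3 against 69.6 and 62.0 (-0.14, SE 0.45). With counts of Gm3375 added, a gene that shares part of its sequence, Psmb5 was at 102 and 82.0 in bright CMs against 87.1 and 63.2 in controls, so the means were in the opposite order. Psmb7 was at 81.1 and 52.0 against 58.9 and 24.4 (0.66, SE 0.56, and 0.18 without M73). The groups overlapped for all 3, and their adjusted p-values lay at 0.935 or above. The activator pair had log2 fold changes of 0.27 (Psme1, SE 0.48) and -0.08 (Psme2, SE 0.49), the nuclear activator Psme3 of -0.20 (SE 0.53) and Psmf1 of 0.63 (SE 0.68). Over the whole set, 8 members were higher in both bright sums than in both controls (24.3% of all genes) and 2 were lower (14.8% of all genes). By class, the median was 0.38 for the alpha subunits (5 of 7 above 0), 0.05 for the beta subunits (4 of 7), 0.30 for the ATPases (5 of 6), 0.20 for the non-ATPase subunits (8 of 11) and -0.14 for the activators and inhibitor (2 of 6).

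The control mice differed from each other by a larger median than the groups did. M26 over M73 had a median log2 ratio of 0.59 with 31 of 41 members higher in M26. Over all 16615 genes kept in the 8 sums the median was -0.056, with 48.8% higher in M26. In M26 13 members were at least 2 times higher, and the share of all genes at that factor was not computed. By contrast, the bright CMs of M25 and M116 differed by a median of 0.17, and no member by a factor of 2. M25 bright over M26 gave a median of 0.11 for the members, and M116 bright over M73 gave 0.41, beside -0.13 and 0.26 over all genes. Markers of other cells moved with these groups. The 6 fibroblast markers were all above 0 in bright CMs (median log2 fold change 3.66) but summed to 2238 CPM in M25 and 57.5 in M116 bright CMs against 122 in M26 and 32.5 in M73, without TMM, and 2 of them were at 0 in M73. The 6 CM markers were all below 0 (median -0.71), with summed levels of 65881 and 66497 CPM in bright CMs against 74341 and 81006 in controls. Of the 3 mural markers tested 2 were below 0 (median -1.80), and of the 7 immune markers 5 were at 0 counts in each bright sum, with summed levels of 0.264 and 1.97 CPM against 3.17 in each control. Their part in the members' values was not tested.

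**Figure D2:**
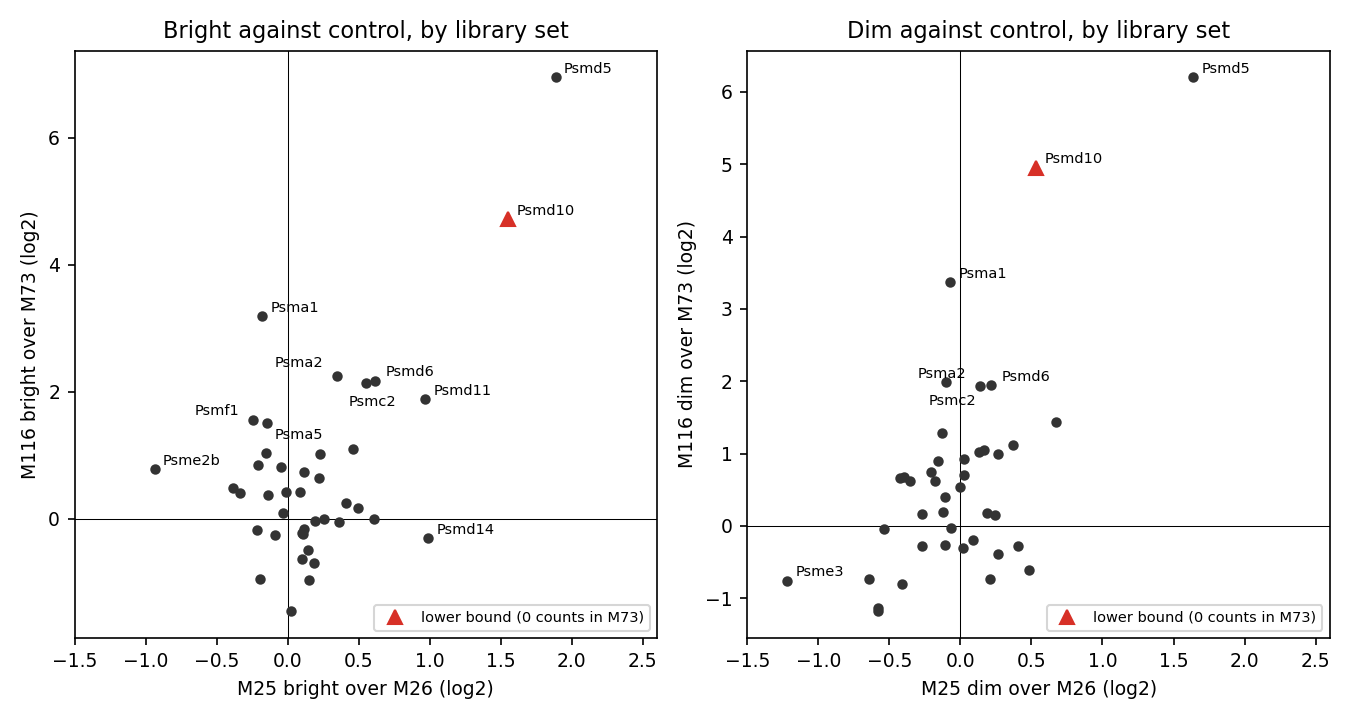
Log2 ratio of each member between a homozygous mouse and the control mouse of the same library set, M25 over M26 on the x axis and M116 over M73 on the y axis, for bright (left) and dim CMs (right); the triangle is a lower bound. Psmd5 and Psmd10 were positive on both axes, whereas Psma1 was above 3 on the y axis and near 0 on the x axis.

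In homozygous dim CMs, compared with the same 2 controls, 0 of 41 members and 0 of 12195 genes (0%) had an adjusted p below 0.05 in edgeR. At an unadjusted p under 0.05 there were 2 members, both lower in dim CMs, beside 6.22% of all genes in either direction. DESeq2 called 0 members (0.435% of all genes) and had 3 at an unadjusted p under 0.05 (7.64% of all genes). The median of the members was 0.10, as over all genes (0.10), and 26 of 41 were above 0, beside 54.2% of all genes. Without TMM it was 0.38 for both, with 35 of 41 above 0 (66.4% of all genes). By class, 6 of 6 ATPases, 6 of 11 non-ATPase subunits, 5 of 7 alpha and 2 of 7 beta subunits were above 0.

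Psme4 was at 133 CPM in M25 and 141 in M116 dim CMs against 199 in M26 and 319 in M73, with no overlap (log2 fold change -0.94, SE 0.37, adjusted p = 0.752, edgeR). Psma4 was at 106 and 111 CPM against 158 and 243, again with both dim sums below both controls (-0.91, SE 0.37, adjusted p = 0.776). The nuclear activator Psme3 was at 19.9 and 26.3 CPM against 46.4 and 44.4 (-0.99, SE 0.52, adjusted p = 0.931). In its case the 2 controls lay close together. Psmb10 was at 46.5 and 40.9 CPM against 72.7 and 67.8 (-0.70, SE 0.41, adjusted p = 0.960), also without overlap, and Psmd3 at 75.4 and 83.7 against 101 and 146 (-0.65, SE 0.38, adjusted p = 0.960). Without M73 the log2 fold change was -0.54 for Psme4, -0.55 for Psma4, -0.34 for Psmd3 and -1.01 for Psme3. These 5 were among 9 members lower in both dim sums (14.2% of all genes).

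The 5 highest in dim CMs were Psmd5, Psmd10, Psmd11, Psma1 and Psmd6. Psmd5 was at 20.2 and 21.3 CPM (log2 fold change 2.54, SE 1.32, adjusted p = 0.931, edgeR) and Psmd10 at 12.5 and 27.0 (2.12, SE 1.62, adjusted p = 0.986), both above each control. Psmd11 was at 84.4 and 65.6 CPM (0.94, SE 0.52, adjusted p = 0.945). Without M73 the log2 fold change was 1.67 for Psmd5, 1.19 for Psmd10, 0.50 for Psmd11 and 0.077 for Psmd6. Psma1, an alpha ring subunit, was at 177 and 183 CPM, M26 at 186 and M73 at 17.7, so that M26 lay above both dim sums and M73 below them (log2 fold change 0.80, SE 0.89). In M73, 88.5% of the Psma1 counts came from 1 CM. Psmd6 was at 110 and 90.9 CPM and overlapped M26 (0.74, SE 0.64). In all, 4 members were higher in both dim sums (23.8% of all genes).

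Leaving out M26, so that M73 was the lone control, called 6 members: Psma1, Psma2, Psmc2, Psmd5, Psmd6 and Psmd10. All 6 were higher in dim CMs, at log2 fold changes of 2.00 to 6.12 in 5 of them, while Psmd10 had 0 counts in M73. That fit called 827 of 14036 genes (5.89%) and assumes that the lone control varies like the other sums. Psmd10 with 0 and Psmd5 with 1 count in M73 passed the filter on low counts only through the dim sums, so their calls in that fit carry no weight. Without M73 instead, 0 members and 3 of 14493 genes (0.0207%) were called, with medians of -0.094 for the members and 0.17 for all genes.

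The catalytic subunits in dim CMs had log2 fold changes of -0.21 for Psmb6 (SE 0.30), -0.18 for Psmb5 (SE 0.50) and 0.50 for Psmb7 (SE 0.56). Psmb6 was at 300.1 and 319 CPM, below both controls, while Psmb5 and Psmb7 overlapped. With Gm3375 added Psmb5 was at 99.1 and 74.98 in dim CMs against 87.1 and 63.2 in controls, so here too the means were in the opposite order. Psme1 was at 0.40 (SE 0.48), Psme2 at 0.01 (SE 0.49) and Psmf1 at 0.28 (SE 0.69). Immune markers summed to 60.7 and 55.9 CPM in dim CMs against 3.17 in each control, without TMM, and endothelial markers to 160 and 167 against 79.0 and 133. CM markers summed to 71683 and 66506 CPM in dim CMs against 74341 and 81006, with 5 of 6 below 0 (median log2 fold change -0.64). Of the 7 immune markers 1 was at 0 counts in M25 dim CMs and 0 in M116, with 4 at 0 in M26 and 3 in M73. Their part in the members' values was not tested.

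Bright and dim CMs of the homozygotes came from the same hearts, and this comparison involves no control. In edgeR 0 members and 0 of 13439 genes (0%) had an adjusted p below 0.05. At an unadjusted p under 0.05 there were 0 members, beside 4.12% of all genes. DESeq2 called 0 members (0.677% of all genes) and had 0 at an unadjusted p under 0.05 (5.86% of all genes). The median of the members was 0.15, beside -0.0073 over all genes, with 29 of 41 above 0, beside 49.5% of all genes. Of the 41 members 10 were higher in both bright sums than in both dim sums (15.1% of all genes) and 3 were lower (16% of all genes). Within M25 the median was 0.21 with 30 members above 0, and within M116 it was 0.059 with 23 above 0. Without M25 bright CMs the median of the members was -0.021, and with equal weight for each CM it was -0.19 with 15 of 41 above 0 (41.8% of all genes). By class, 10 of 11 non-ATPase subunits, 5 of 7 alpha, 5 of 7 beta and 3 of 6 ATPase subunits were above 0. The 6 endothelial markers (median log2 fold change -1.06) and the 3 mural markers tested (-1.12) were all below 0. Immune markers summed to 0.264 and 1.97 CPM in bright and 60.7 and 55.9 in dim CMs, without TMM, with 5 of 7 at 0 counts in each bright sum. Fibroblast markers summed to 2238 CPM in bright and 52.3 in dim CMs of M25, and to 57.5 and 209 in those of M116, so the mice differed in direction. Their part in the members' values was not tested.

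Highest in bright over dim CMs was Psme3, at 52.9 and 27.4 CPM against 19.9 and 26.3 (log2 fold change 0.79, SE 0.42, adjusted p = 0.999, edgeR). The classes differed by far more in M25 than in M116. Psmd5 followed at 0.52 (SE 0.36), Psmb10 at 0.47 (SE 0.35), Psmc2 at 0.42 (SE 0.27) and Psmd14, the lid deubiquitinase, at 0.40 (SE 0.21). Psmd14 was at 104 and 96.4 CPM in bright CMs against 73.5 and 77.8 in dim CMs, with no overlap. Psmb10 was at 78.0 and 43.5 against 46.5 and 40.9, with overlap, and 36.6% of its counts in M25 bright CMs came from 1 CM. The lowest were Psme2b at -0.84 (SE 0.89), Psma1 at -0.15 (SE 0.19), Psme1 at -0.14 (SE 0.20), Psmc5 at -0.11 (SE 0.21) and Psme2 at -0.10 (SE 0.24). The catalytic Psmb6 was at 0.25 (SE 0.18), Psmb7 at 0.15 (SE 0.34) and Psmb5 at 0.03 (SE 0.47). Psme4 had a log2 fold change of 0.21 (SE 0.31) and Psmf1 of 0.34 (SE 0.40).

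Bright CMs of M116 were spread over 2 plates with 29 and 30 CMs, and dim CMs over the same plates with 29 and 21. Without TMM, the members had a median log2 ratio between these plates of 0.34 in bright and 0.15 in dim CMs. These values include any shift common to all genes and cannot be set directly beside the TMM-scaled differences between bright and dim CMs.

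**Figure D3:**
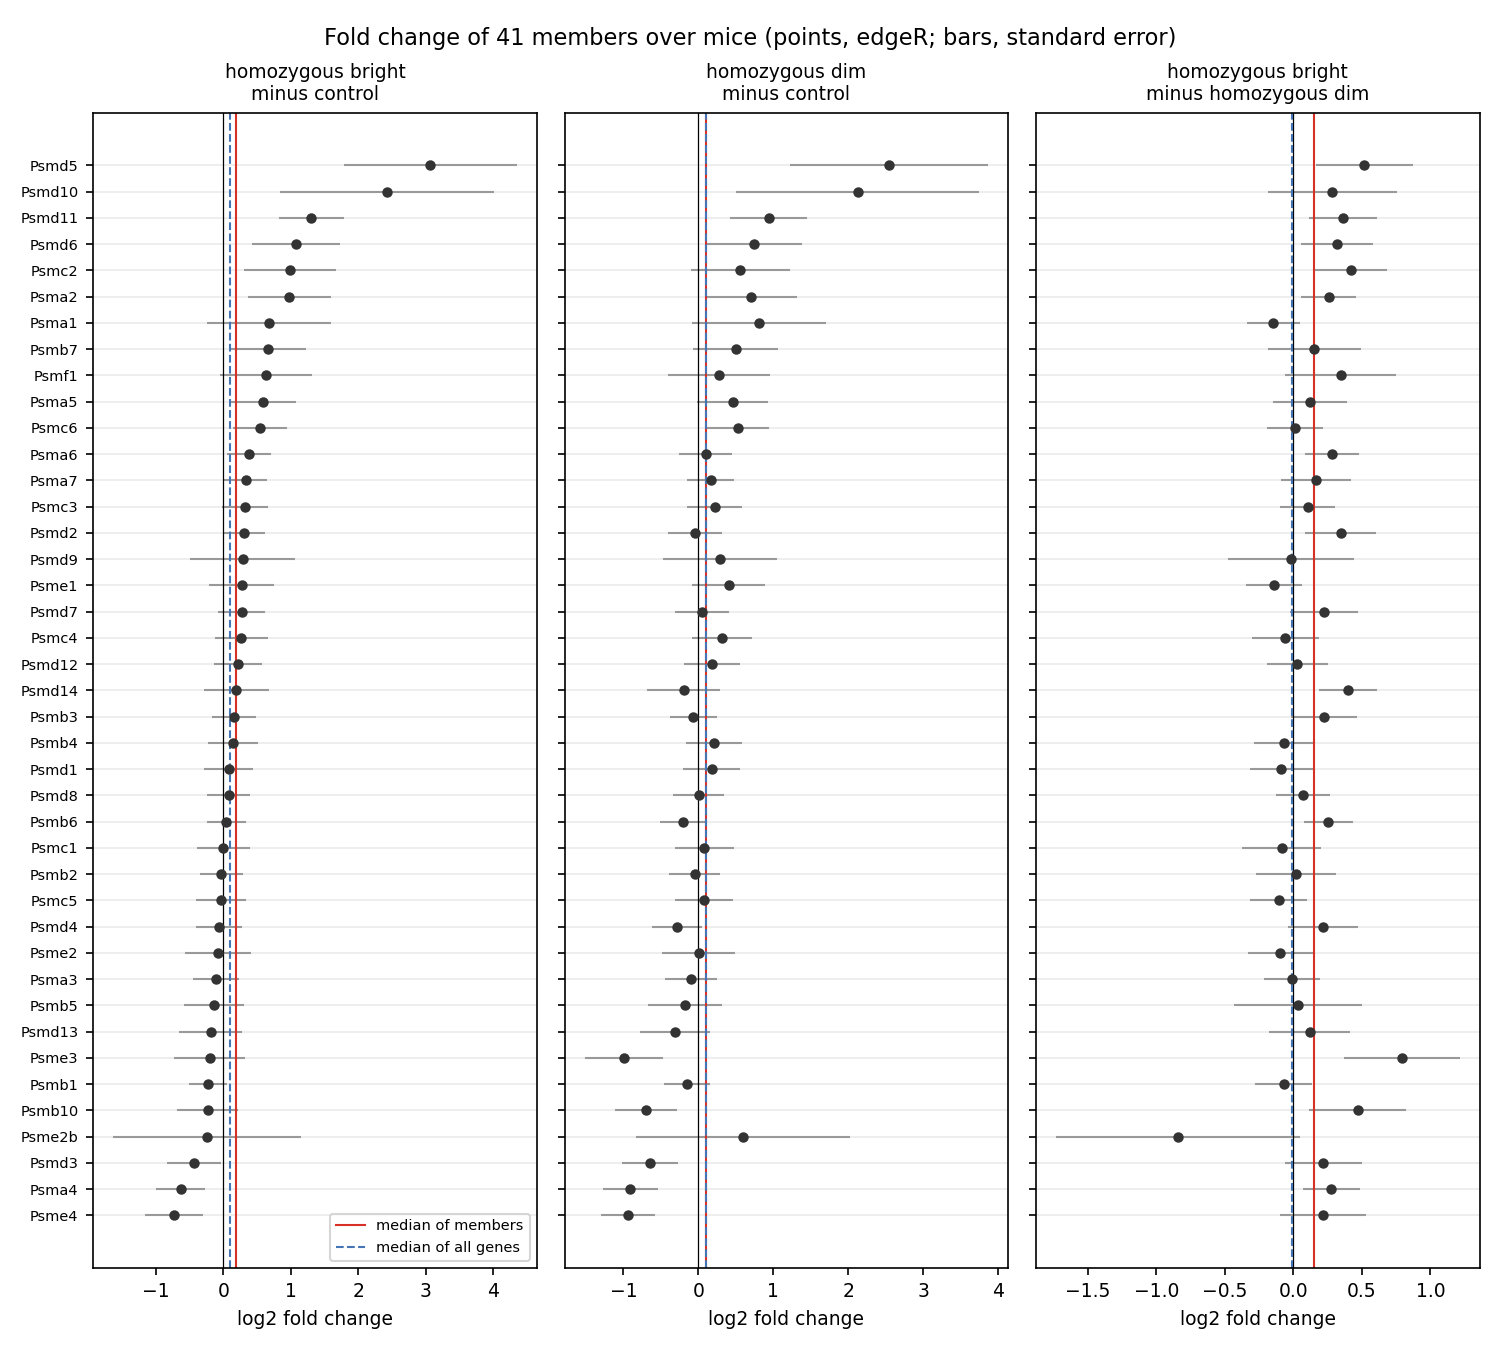
Log2 fold change (points) with standard error (bars) of the 41 members in the 3 tested comparisons, ordered by the first, with the median of the members (solid red) and of all genes (dashed blue). The bars of Psmd5, Psmd10 and Psme2b are wide, and the medians of members and of all genes differ by 0.09 on the left, -0.0030 in the middle and 0.16 on the right.

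In the heterozygote M72 the members lay the other way round. Summed over the 41 members, bright CMs held 4234 CPM and dim CMs 4860, a log2 ratio of -0.20. The ratio was 0.21 in M25 (5682 against 4921) and 0.05 in M116 (4955 against 4782). In M72 29 of 41 members were lower in bright CMs (45.9% of all genes), with a median log2 ratio of -0.20, beside 0.088 over all genes. In this mouse the dim CMs were also those with more human BAG3. Fibroblast markers summed to 468 CPM in its bright and 22.9 in its dim CMs, immune markers to 19.1 and 3.10, and endothelial markers to 111 and 189, without TMM. The difference between genotypes in the bright to dim contrast was tested per gene with the mouse as block: 0 of 41 members and 0 of 16194 genes (0%) had an adjusted p below 0.05 in edgeR, while 5 members had an unadjusted p under 0.05, beside 6.01% of all genes. The fit assumes that the single heterozygote varies like the homozygotes. The median difference of the members was -0.34, and 32 of 41 were below 0, beside 51.4% of all genes. In the same contrast all 6 CM markers (median 0.20) and 5 of 6 fibroblast markers were above 0. Immune markers are given by level only, since 5 of 7 were at 0 counts in M72 dim, M25 bright and M116 bright CMs and 2 in M72 bright CMs. Their part in the members' values was not tested.

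The 5 members chosen here for their unadjusted p were Psmd5, Psmd9, Psmb6, Psme1 and Psmd13. Psmd5 was at 3.87 CPM in bright and 16.4 in dim CMs of M72 (difference in log2 ratio from the homozygotes -2.58, SE 0.66, adjusted p = 0.797, edgeR). Psmd9 went the other way, at 44.1 in bright and 12.7 in dim CMs (1.84, SE 0.55, adjusted p = 0.797), with 290 of its 580 bright counts in 1 CM. Psmb6 was at 258 and 352 CPM (-0.71, SE 0.20, adjusted p = 0.797), Psme1 at 74.6 and 145 (-0.82, SE 0.28, adjusted p = 0.797) and the lid subunit Psmd13 at 24.4 and 59.0 (-1.39, SE 0.50, adjusted p = 0.797). Against M73 from the same plate, M72 had a median log2 ratio over the members of 0.12 in bright and 0.33 in dim CMs, beside 0.041 and 0.14 over all genes, with 1 mouse on each side and no test.

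In single CMs the medians of bright CMs lay above those of dim CMs in both homozygotes and below them in M72. The share of a CM's counts on the members, without TMM, had a median of 5474 CPM in M25 and 5288 in M116 bright CMs, and of 5045 and 5108 in dim CMs. It was 4094 in M72 bright and 4818 in M72 dim CMs, 4621 in M26 and 3698 in M73. The quartiles were at 4724 and 6003 in M116 bright and at 4748 and 5661 in M116 dim, so single CMs of the classes overlapped broadly. Without CMs under 1000 genes the medians were 5477, 5253, 5045 and 5108 in the homozygotes, 4110 and 4796 in M72, and 4621 and 3516 in the controls.

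**Figure D4:**
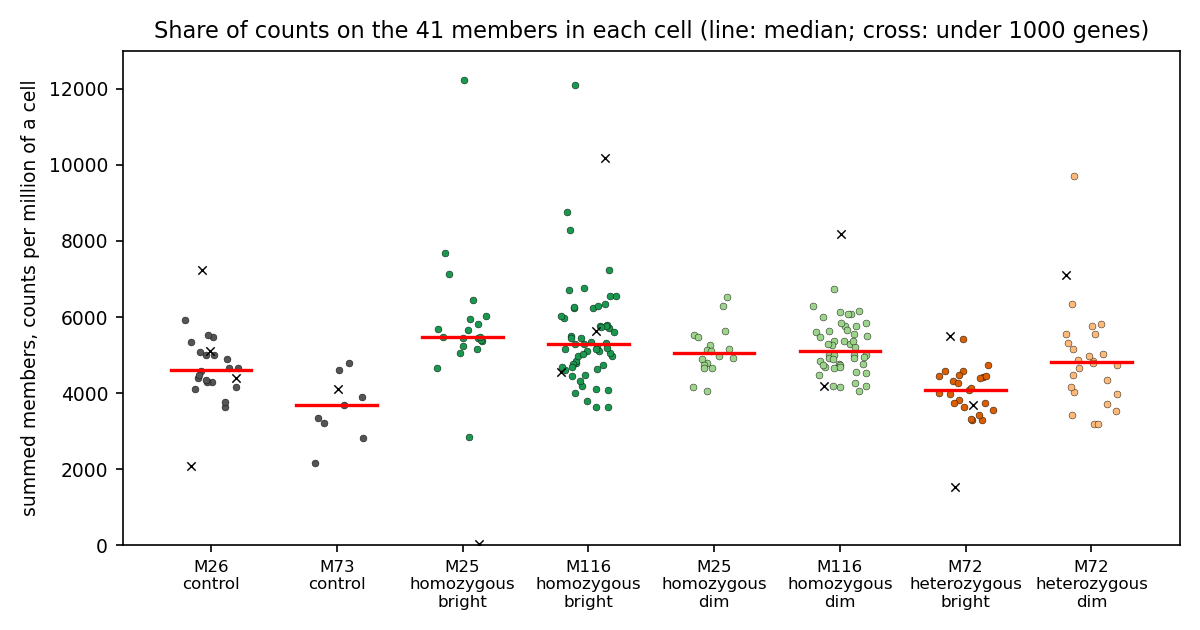
Summed CPM of the 41 members in each CM (y axis, from 0, without TMM), by mouse and class (x axis); red lines are medians and crosses are CMs with fewer than 1000 genes. The medians of M73 (3698) and M72 bright (4094) are the lowest and those of the homozygous bright CMs (5474 and 5288) the highest.

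Correlations between members from CM to CM were weak. Across the CMs of a sum with at least 1000 genes, the median Spearman rho between pairs of members ran from -0.0081 in M72 bright (24 CMs) to 0.23 in M25 bright (20 CMs). Over all pairs of genes counted in at least 50% of the same CMs it was 0.022 and 0.15 in these sums. The CMs of a sum share a heart, a preparation and differences in depth, and M73 was left out with 8 such CMs. The rho between the summed members and human BAG3 lay between -0.11 and 0.23 in the 6 transgenic sums, and that with a CM's total count between -0.27 and 0.48.

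Psmb10 was the inducible subunit with counts throughout. It was counted in 182 wells, at 40.9 to 78.0 CPM in the 8 sums. Its count ratio to Psmb7, the subunit it replaces, was 1.23 in M26 (95% exact interval 1.14 to 1.34) and 2.79 in M73 (2.16 to 3.62). In homozygotes the ratio was 0.962 (0.897 to 1.03) in M25 bright, 0.837 (0.788 to 0.889) in M116 bright, 0.656 (0.602 to 0.715) in M25 dim and 0.846 (0.790 to 0.906) in M116 dim CMs. All 4 lay below both controls and below M72, at 1.41 in both classes. The high ratio in M73 came with a Psmb7 level of 24.4 CPM, beside 36.4 to 81.1 in the other sums, and 52.6% of the Psmb10 counts of M73 came from 1 CM. In M25 bright CMs 36.6% of the Psmb10 counts came from 1 CM. The intervals treat reads as independent and cover no variation between mice. With 2 mice against 2, the smallest two-sided p of an exact permutation test is 0.333, and none was run on the ratio.

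The other inducible subunits were nearly absent. Psmb8 had 131 and Psmb9 121 counts over all wells. The ratio of Psmb8 to Psmb5 was 0 in M26, where 0 counts allow up to 0.00240 with 3 counts, and 0.0794 in M73 (0.0454 to 0.130). It was between 0.0149 and 0.0215 in the 4 homozygous sums, 0.000891 in M72 dim and 0 in M72 bright, where 3 counts allow up to 0.00283. With Gm3375 added to Psmb5 it was 0.00892 in M116 bright and 0.00744 in M116 dim CMs, 0.0128 and 0.0175 in those of M25, and 0.0780 in M73. Psmb9 to Psmb6 was highest in M73, at 0.0212 (0.0141 to 0.0308), and 0.00472 or less elsewhere. In M73 all 17 Psmb8 counts came from 1 CM and all 28 Psmb9 counts from another, so each ratio of M73 rests on a single well.

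The counts of Psmb8 and Psmb9 sat in 19 wells, drawn from all 5 mice. Of these, 16 (84.2%) also had counts of at least 3 of the 6 endothelial markers (Pecam1, Cdh5, Kdr, Flt1, Tie1 and Egfl7), beside 27 of the 215 wells (12.6%) with neither subunit. All 12 wells with Psmb8 were among them, as were 6 of the 9 with Psmb9. Conversely, 37.2% of the 43 wells with at least 3 endothelial markers had Psmb8 or Psmb9, beside 1.57% of the other 191. The wells with these subunits were deeper, with a median of 940201 counts beside 706091, and all of them had each CM marker. Immune markers were counted in 5 of the 19 wells and in 27 of the 215. Psmb10 did not follow this pattern, being counted in 35 of the 43 wells with at least 3 endothelial markers and in 147 of the other 191, at medians of 38.2 and 39.4 CPM. In a well with RNA of several cells the cell of origin cannot be told apart.

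**Figure D5:**
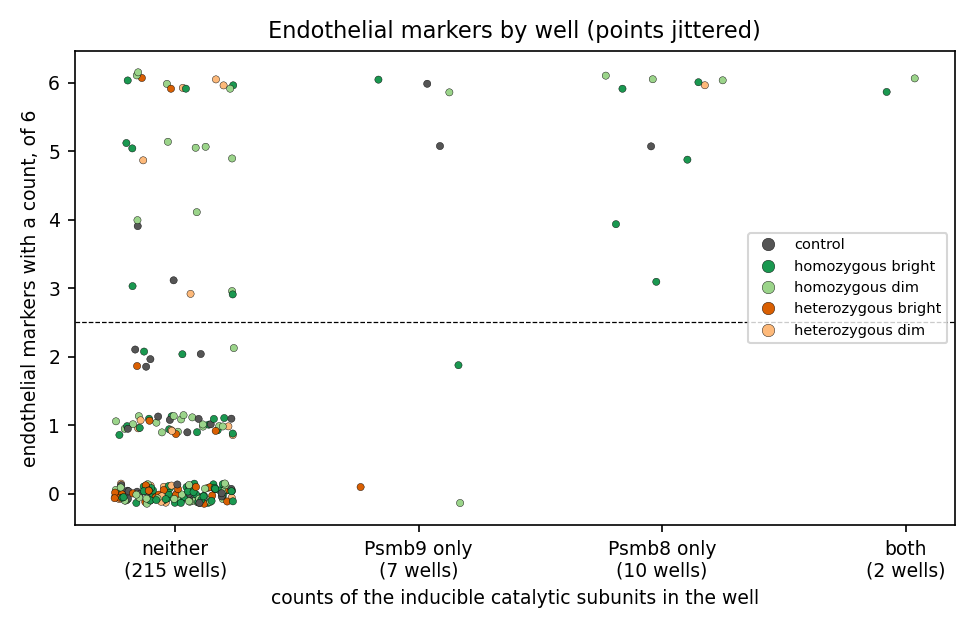
Number of the 6 endothelial markers with a count (y axis) in wells grouped by their Psmb8 and Psmb9 counts (x axis), coloured by genotype and brightness, with points jittered. All 12 wells with Psmb8 lie above the dashed line at 3 or more markers, whereas most of the 215 wells with neither lie at 0.

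Some members share sequence with copies, and the counting option used takes only reads with 1 place in the genome. In GENCODE M21, 24 of 41 members shared under 1% of their 75-base stretches, the length of a read, with another gene, and 7 shared over 10%. Psme2b shared 60.2% with Psme2, so its low counts are uncertain. Psmb5 shared 32.9% with Gm3375, which held 4314 counts beside 10103 for Psmb5. Gm3375 had 1702 and 1417 counts in bright and dim CMs of M116, 506 and 353 in those of M25, and 313 in M26. M73 had 4, and M72 had 8 and 11, against 1059 and 1122 for Psmb5. With Gm3375 added, Psmb5 went from 44.3 to 82.0 CPM in M116 bright and from 37.3 to 74.98 in M116 dim CMs. In M72 it stayed at 81.1 and 81.0 CPM, and it was 102 and 99.1 in M25, 87.1 in M26 and 63.2 in M73. M116, which was lowest for Psmb5 alone, was no longer lowest with the copy added. Further, 11 members share exon bases with a neighbouring gene, among them Psmd9 (1849 bases with Gm26745 on the other strand) and Psmd13 (342 with Sirt3), and no strand column is named in the sources used here.

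The genes around the proteasome gave no more calls. Of 18 partner genes tested (assembly chaperones, shuttles and deubiquitinases), 0 passed in any comparison, and 0 had an unadjusted p under 0.05 in the 3 comparisons among homozygotes and controls. Their medians were -0.24 in bright and -0.23 in dim CMs against control, beside 0.11 and 0.10 over all genes, and 0.038 in bright against dim. Of 11 ubiquitin and E3 ligase genes, 0 passed in any comparison. Trim63, the muscle E3 ligase MuRF1, was at 52.9 and 65.2 CPM in dim CMs against 97.2 and 137 in controls, scaled over those 4 sums (log2 fold change -0.98, SE 0.39, adjusted p = 0.759, edgeR). Of the 10 antigen processing genes 7 could be tested against control and 0 passed. Their median was -0.11 in bright and -0.012 in dim CMs against control, with 5 and 4 of the 7 below 0. Lowest in dim CMs was B2m (log2 fold change -1.81, SE 0.90). It was at 35.3 and 28.7 CPM in dim CMs against 23.3 in M26 and 201 in M73, scaled over these 4 sums. Irf1, an interferon-responsive factor, was at 2.08 and 8.19 CPM in dim CMs against 0.0540 and 0.284 in controls (unadjusted p = 0.0388, adjusted p = 0.754, edgeR). It passed the filter on low counts only through the dim sums and was not tested in bright CMs, so its difference is given as a description. In the contrast of genotypes Uchl5, a deubiquitinase of the 19S cap, was at -1.76 (SE 0.53) and the E3 ligase Mdm2 at 1.28 (SE 0.44), each with an adjusted p of 0.797.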

How the data were processed

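Single CMs of 5 mice were profiled by SMART-seq2. The authors aligned reads with STAR and its GeneCounts option to the mouse genome plus human BAG3 and eGFP transcripts, and deposited raw counts per gene; the genome build, annotation and strand column are not given in the sources used here. Samples were grouped by their labels, and 0 columns were left unused. No other per-sample unit was used.

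Counts were summed per mouse and brightness class (8 sums of 18 or more CMs, except 9 for M73). The 3 comparisons used filterByExpr, TMM and glmQLFTest of edgeR 4.0.16 (R 4.3.3), with Benjamini-Hochberg adjustment over all genes tested and a threshold of 0.05. The scripts were tested on simulated data. Alternatives were DESeq2 1.42.0, limma 3.58.1 on mean log2(CPM + 1) per CM, library size alone, no filter, another quasi-dispersion setting, CMs with at least 1000 genes, all sums in 1 fit, the study's Wilcoxon test over CMs, a library set or mouse block, and leaving out each mouse. With 2 mice a group, p-values rest on the spread between these mice, together with the spread over all genes that edgeR draws on. The 2 mice of each tested group were in different library sets, so their spread includes that difference. Bright and dim CMs of M25 and M116 share an animal, so they are paired; across genes, the difference between these mice correlated between classes at a Pearson r of 0.075. Ratios between sums used TMM over the 8 sums, 0 counts set to 3 for members, and 0.5 counts added for the median of all genes. Interval limits are exact binomial (95%).

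Named genes were the catalytic subunits, activators and inhibitor, members past the threshold, and the 5 highest and 5 lowest fold changes per comparison. Members and lists were chosen with earlier results of these data known. Doublets were not called. Some genes of these lists are not reported here.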

Additional observations from a re-analysis of the deposited data

Results flagged for a closer look

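The summed members differed in direction between genotypes: bright over dim was above 0 in both homozygotes and -0.20 (log2) in the heterozygote M72. By class, the same opposite signs were seen for the 19S non-ATPase subunits (-0.20 in M72), the alpha subunits (-0.16), the beta subunits (-0.28) and Psmb10 (-0.28), whereas the ATPases, the base chaperones and the activators did not split this way. The difference was not tested on these sums, and M72 is 1 mouse. The order of human BAG3 was also reversed in M72, and its part in the members' values was not tested.

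Psma8, the testis alpha subunit outside the members, had 88 counts in 7 CMs of transgenic mice and 0 in the 33 control CMs. Over the transgenic sums this is 0.630 CPM, while 0 counts allow up to 0.127 CPM in the controls if reads are taken as independent. The counts rest on few CMs: 33 of the 34 in M116 dim CMs came from 1 CM, and M25 dim CMs had 0. Whether the share of CMs with a count differed was not tested. Of the 7 wells, 1 had at least 3 endothelial markers and 0 had an immune marker.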

How the results depend on the processing

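No alternative fitted over mice called a member except the fit of dim CMs without control M26, so that the number of members called ran from 0 to 6 over the fits that leave out a mouse. The study's Wilcoxon test over CMs treats CMs as replicates and is given as a description: of 630 genes tested in bright and 604 in dim CMs against control it called 45 and 54, including 0 of the 12 and 6 members that passed its filters, and in bright against dim CMs no member could be tested. Over all genes the calls in bright CMs against control, dim CMs against control and bright against dim CMs went from 2, 0 and 0 in edgeR to 92, 53 and 91 in DESeq2, and to 163, 58 and 217 without a filter on low counts. The median log2 fold change of the members in bright CMs against control was 0.52 with library size alone (0.41 over all genes). It was 1.10 with equal weight per CM (0.32 over all genes). When a mouse was left out it ran from -0.014 (0.20 over all genes) to 0.43 (0.94 over all genes). In dim CMs it was 1.34 with equal weight (0.39 over all genes). In bright against dim CMs it was -0.19 with equal weight (-0.058 over all genes). There it ran from -0.021 (-0.054 over all genes) to 0.30 (-0.12 over all genes) when a mouse was left out. With the replicate block (mouse) it was 0.14 and 0 members were called, so the pairing changed no call. Other values that changed sign were not past the threshold after the change. With equal weight, these were in bright CMs Psma4 (0.48), Psmb10 (0.62), Psmb5 (1.40), Psmd3 (0.069), Psme2 (0.16), Psme2b (0.11) and Psme3 (0.76), in dim CMs Psma4 (0.27), Psmb10 (0.59), Psmb5 (1.62) and Psmb6 (1.73), and in bright against dim CMs Psmb5 (-0.22), Psmb6 (-0.31), Psmb7 (-0.34), Psmd14 (-0.056) and Psme4 (-0.57). With library size alone they were Psmb10 (0.075), Psmb5 (0.16), Psme2 (0.21), Psme2b (0.056) and Psme3 (0.11) in bright CMs, and Psmb5 (0.10) and Psmb6 (0.10) in dim CMs. Psme2 changed sign in dim CMs with DESeq2 (-0.0050) and the other quasi-dispersion setting (-0.089), and in bright CMs with the library set as a block (0.019). With both classes summed, Psmb6 was at -0.074 and Psme2b at 0.21. Leaving out a mouse gave ranges across 0 in bright CMs for Psmb10 (-0.67 to 0.12), Psmb5 (-0.55 to 0.20), Psmb6 (-0.080 to 0.21), Psme1 (-0.23 to 1.09), Psme2 (-0.53 to 0.60), Psme2b (-0.70 to 0.55) and Psme3 (-0.71 to 0.19). In dim CMs it did so for Psma1 (-0.053 to 3.33), Psmb5 (-0.79 to 0.27), Psme1 (-0.11 to 1.24), Psme2 (-0.45 to 0.71) and Psmf1 (-0.10 to 0.82). In bright against dim CMs it did so for Psmb10 (-0.021 to 0.84), Psmb5 (-0.43 to 0.69), Psmb7 (-0.21 to 0.46), Psmc5 (-0.21 to 0.014), Psme2 (-0.27 to 0.060), Psme4 (-0.25 to 0.56) and Psmf1 (-0.14 to 0.71). The causes were not tested. Psmd11 kept a log2 fold change above 0 against control in all fits run, from 0.49 to 2.31. That of Psmd5 was also above 0 in all of them, from 1.67 to 6.62. Its values without M26, up to 6.62, carry no weight, since Psmd5 had 1 count in M73, the lone control.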
